A study of Mus musculus with 20 samples.

Results

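Cells carrying guide RNAs against both genes for the histone variant H2A.Z were compared with cells carrying the empty CRISPR vector. The comparison takes 12 of the 20 samples of the series, 6 with the guides and 6 controls, chosen by sample title. All 12 come from E2-10HA, a mouse T cell hybridoma labelled as mature T cells, infected with lentiCRISPRv2 and selected with puromycin. This vector carries the nuclease Cas9 and a site for a guide RNA. The guide samples have lentiCRISPRv2-sgH2afv/H2afz as integrated plasmid, and the controls have lentiCRISPRv2 without a guide. The vector and the puromycin selection are therefore common to both groups. No treatment was given to replicates 1 and 2 of either group, and for replicates 3 to 6 the labels name none.

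Several facts limit the guide samples as a model. All 6 guide titles carry the number 12 and were taken to be 1 line. Nothing in the labels shows that replicates were grown as separate cultures. The p-values therefore measure the spread among the 12 libraries alone, and that spread may be technical. Replicates 1 and 2 differ from replicates 3 to 6 in their label fields and in the output folder recorded in the file headers. They are called set 1 and set 2 here, and each set holds both groups. In 6 of the 8 set 2 samples the free-text description names a group other than the title does, whereas the integrated plasmid and the title match in all of them.

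H2A.Z replaces the common histone H2A in a small share of nucleosomes, chiefly those beside transcription start sites, enhancers and insulators. In vertebrates a pair of genes, H2afz and H2afv, encode near-identical H2A.Z proteins. The SRCAP and TIP60-p400 complexes place H2A.Z in chromatin, and INO80 and the chaperone Anp32e take part in its removal. H2A.Z has been linked both to active and to poised or repressed promoters, and in T cells to the repression of Notch target genes.

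Total counts ran from 13309111 to 18344298 in guide samples and from 10704131 to 15440584 in the controls. A gene was called at an adjusted p under 0.05 in the quasi-likelihood test of edgeR with Benjamini-Hochberg adjustment over all genes tested, with the set as a covariate. Levels are in CPM, counts scaled to library size with TMM factors. In a principal component analysis of 8370 genes, the first component (72.4% of the variance) separated guides from controls and the second (16.8%) separated the sets. Rn45s, the ribosomal RNA precursor, held 7.67% and 6.93% of the counts in guide replicates 5 and 6 and 6.73% in control replicate 6, against 2.46% to 3.42% in the other 9 samples.

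The labelled cell type was checked against marker genes. The summed level of 11 T cell markers was 1410 to 2210 CPM in guide samples and 1100 to 1430 CPM in control samples, and Cd8a had 0 counts in all 12. Summed B cell, myeloid, natural killer and erythroid markers stayed at or below 0.846 CPM in guide samples and 1.76 CPM in control samples. Fibroblast markers stood apart in replicate 1 of both groups. The collagen gene Col1a1 was at 9.74 CPM in guide replicate 1 and 9.52 CPM in control replicate 1, and at most 0.111 CPM in the other 10 samples. Col1a2, Dcn, Thbs1 and Pdgfra shared this pattern. In all, 41 genes had at least 1 CPM in both replicates 1 and less than 0.2 CPM elsewhere, with a summed level of 179 CPM in guide replicate 1 and 139 CPM in control replicate 1. None of the 41 (0 of 41) passed the filter on low counts, an outcome fixed by their low level in the other 10 samples. The part of such reads in genes that were tested is not known. Without replicate 1 of both groups, the edgeR test called 3677 genes higher and 3683 lower.

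Both targeted genes were lower in every guide sample than in any control. H2afz (mm9 chr3:137527451-137529886) stood at 4.57, 5.13 and 5.70 CPM as the lowest, median and highest of the 6 guide samples, against 24.7, 27.9 and 31 CPM in control samples. The fitted change was -2.44 on the log2 scale, with an SE of 0.0835 and an edgeR adjusted p of 7.2e-13. H2afv ran from 27.4 to 56.9 CPM with the guides (median 30) and from 117 to 149 CPM in control samples (median 125), and its log2 change was -1.87, with an SE of 0.0981 and an edgeR adjusted p of 1.21e-10. Per kb of exon, H2afz was at 4.87 ± 0.401 CPM in guide cells and 26.4 ± 2.36 CPM in control cells, and H2afv at 22.1 ± 7.35 CPM in guide cells and 78.0 ± 7.2 CPM in control cells (SD, n = 6 each). In these counts H2afv thus stood above H2afz per kb in both groups, and the sum of both per kb was 25.8% of the control. The counts were made without the option that includes reads matching several places. How many reads each of the 2 genes lost in this way was not tested, so their ranking and the sum are uncertain. The other lines of the series carry Notch constructs and no guides. Their mean H2afv level was 68.1 CPM with wild-type BioNICD, 75.7 and 79.3 CPM in the NICD-ER groups and 120 CPM with the DEP mutant. Only the DEP mutant reached the lowest control, so the control stood above most lines without guides. For both genes, every Notch group mean lay above the highest guide sample. In bulk RNA, a lower level in every cell and loss from a share of the cells cannot be told apart. Counts over whole exons hold no information on edits in the transcripts that remained.

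**Figure D1:**
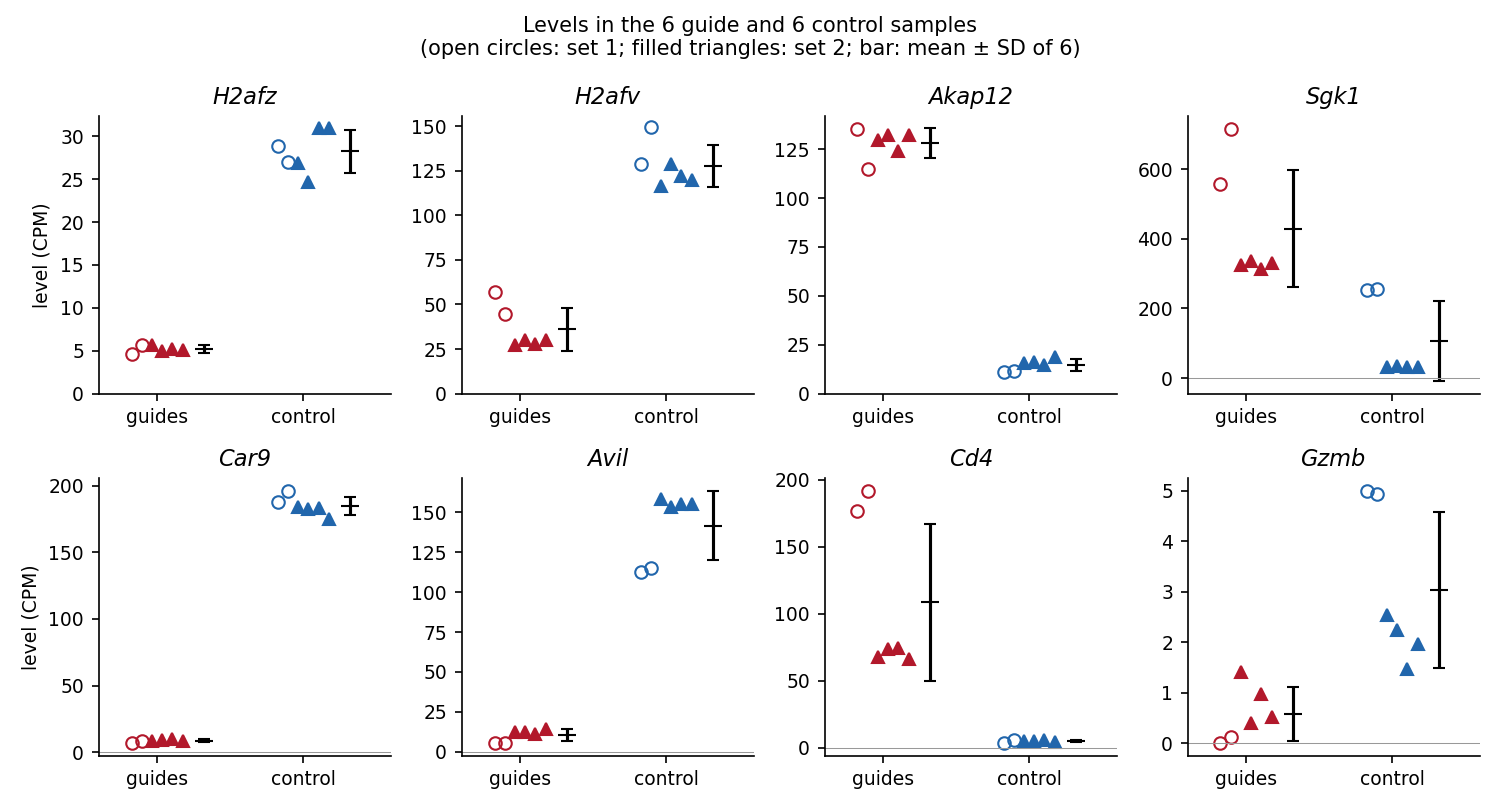
Levels in CPM of 8 genes in each sample, guide samples in red on the left of each panel and controls in blue on the right. Open circles are set 1, filled triangles set 2, and the bar is the mean ± SD of the 6 samples. In all 8 genes the 6 guide samples lie on 1 side of the 6 controls, and Sgk1, Cd4 and H2afv show a gap between sets.

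Most measured genes differed between the groups, mostly by small amounts. Of 10662 genes tested, 6874 (64.5%) were called, 3390 (31.8%) higher and 3484 (32.7%) lower with the guides. The median absolute log2 fold change of the called genes was 0.42, and 4626 of them (67.3%) changed less than 1.5-fold. A change of at least 2-fold was found in 538 higher genes (5.05%) and 449 lower genes (4.21%). The 6 guide samples did not overlap with the 6 controls in 3588 genes (33.7%). Of these, 1822 were called higher and 1764 lower. The median log2 fold change over all genes was -0.01.

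**Figure D2:**
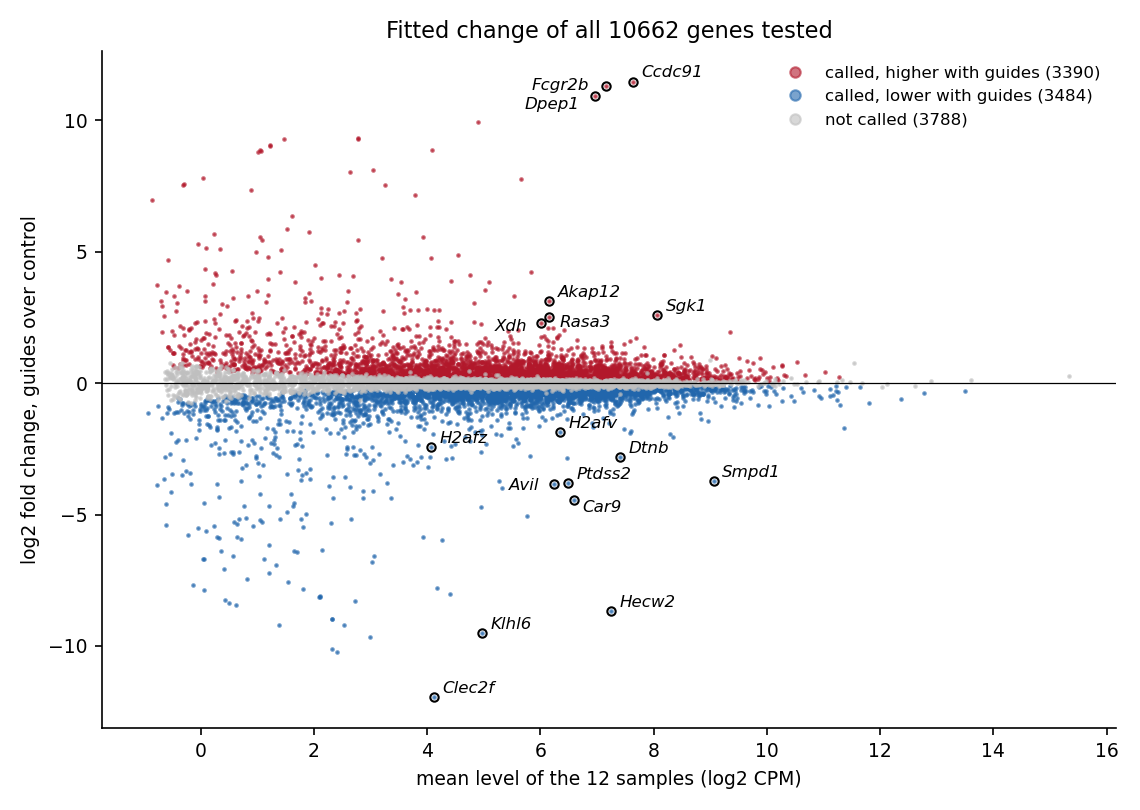
Fitted log2 fold change of guides over control (vertical axis) against the mean level of the 12 samples in log2 CPM (horizontal axis) for 10662 genes. Red points were called higher (3390), blue points lower (3484) and grey points were not called; fitted changes of genes near 0 counts in a group, such as Clec2f, depend on the prior count of the fit.

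Among genes with at least 10 CPM in both groups, the 10 largest rises ran from 1.97 to 3.11 as log2 fold change. Akap12, a scaffold for protein kinase A, was at 115, 131 and 136 CPM (lowest, median and highest) with the guides and at 10.8, 15.3 and 18.8 CPM in control samples, which is 3.11 as log2 fold change (SE 0.0839; edgeR adjusted p = 4.68e-14). Sgk1, a kinase induced by serum and glucocorticoids, ran from 313 to 715 CPM in guide cells and from 31.5 to 257 CPM in control samples (2.60, SE 0.265). Its lowest guide sample lay above its highest control, and set 1 was the higher set in both groups. Rasa3, a GTPase-activating protein for Ras and Rap, averaged 121 ± 12.0 CPM in guide cells and 21.3 ± 5.99 CPM in control cells (2.53). It lies on chromosome 8, where most genes were higher.

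Xdh, which encodes xanthine dehydrogenase of purine breakdown, was at 53.1, 132 and 134 CPM in guide cells and at 9.90, 25.3 and 28.6 CPM in control samples (log2 fold change 2.29). The sets differed in its level, but gave 2.28 and 2.30 as log2 fold change. The surface receptors Ly75, an endocytic receptor of dendritic cells, and Clec4e, a lectin that senses mycobacterial glycolipids, both gave 2.04. The interferon-inducible GTPase Gbp7 (2.27), the receptor phosphatase Ptpre (2.11), the ETS-family factor Elk3 (2.10) and the membrane-bending protein Bin1 (1.97) completed the 10. The edgeR adjusted p-values of these 10 genes were between 1.68e-14 and 3.27e-07. For Akap12, Gbp7, Ptpre and Elk3, all 4 Notch group means lay above the highest control. The highest Notch group mean lay above the guide mean for Sgk1 (703 CPM), Gbp7 (351 CPM), Ly75 (109 CPM), Clec4e (209 CPM) and Bin1 (166 CPM). In the other genes of these 10, no Notch group mean reached the guide mean.

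The 10 largest falls at such levels ran from -3.83 to -2.10. Smpd1, acid sphingomyelinase of the lysosome, was at 72.0, 73.4 and 81.4 CPM in guide cells and at 915, 937 and 1130.5 CPM in control samples, which is -3.72 as log2 fold change (SE 0.0384; edgeR adjusted p = 1.65e-19). Ptdss2, a phosphatidylserine synthase, averaged 12.0 ± 1.12 CPM in guide cells and 167 ± 32 CPM in control cells (-3.80). Pla2g12a, a secreted phospholipase A2, averaged 11.1 ± 0.754 CPM in guide cells and 54.7 ± 6.75 CPM in control cells (-2.31). The lowest control lay far above the highest guide sample in each of these 3 genes.

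Avil, an actin-binding protein of the gelsolin family, had the most negative change of this group (-3.83), at 10.2 ± 3.73 CPM in guide cells and 142 ± 21.7 CPM in control cells. Dtnb, a dystrobrevin of the dystrophin complex, gave -2.83 and the ankyrin-repeat gene Ankrd16 gave -2.76. Ankrd16 averaged 14.6 CPM in guide cells and 98.6 CPM in control cells, but 12.2 to 13.3 CPM in the 4 Notch groups. For Ankrd16 the control thus stood apart from all other lines, and the guide line did not. In the other genes of these 10, every Notch group mean lay above the highest guide sample. For Zcwpw1, Smpd1 and Pla2g12a all 4 means also lay below the lowest control. Zcwpw1, a reader of methylated histone H3 (-2.84), and the adaptor Lat2 (-2.26) lie on the stretch of chromosome 5 where most genes were lower. Cox6a2, the muscle form of a cytochrome c oxidase subunit, gave -2.39 and the circadian clock gene Per3 gave -2.10. Exons of Ptpre, Zcwpw1 and Cox6a2 overlap a gene on the opposite strand, whose reads cannot be told apart in these counts.

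Some genes were near 0 in the control and expressed with the guides, and others the reverse. Only called genes whose guide samples and controls did not overlap were counted here. Of those with a mean under 1 CPM in control cells, 138 were higher, and 18 of these reached at least 10 CPM with the guides. Of those under 1 CPM with the guides, 165 were lower, and 20 of these had at least 10 CPM in control cells. Genes so low in a group pass the filter on low counts mainly through the other group, so these counts are not shares of genes tested. In the 8 other samples of the series, which carry Notch constructs in the same hybridoma and no H2A.Z guides, 110 of the 165 genes had at least 1 CPM in all 4 groups and 13 were under 1 CPM in all 4. Of the 138 genes, 40 had at least 1 CPM in all 4 of these groups and 29 were under 1 CPM in all 4. The control's silence of these 40 genes was thus not shared by the other lines.

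Ccdc91, a gene of a coiled-coil protein of vesicle traffic, was at 347 to 511 CPM in guide cells and at 0 to 0.22 CPM in control samples. Its mean in the 4 Notch groups lay between 9.59 and 205 CPM. Dpep1, a dipeptidase, was at 187 to 383 CPM in guide samples and at 0 to 0.285 CPM in control samples, against 51.8 to 149 CPM in the Notch groups. Fut10, of the fucosyltransferase family, averaged 101 ± 17.2 CPM in guide cells and 0.41 ± 0.29 CPM in control cells, against 27.1 to 76.8 CPM in the Notch groups. These 3 genes were expressed in the other lines as well. Dpep1 and Fut10 lie on chromosome 8, where most genes were higher.

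Fcgr2b, the inhibitory Fc receptor for IgG, averaged 287 ± 21.4 CPM in guide cells and 0.101 ± 0.0921 CPM in control cells, against 0.958 to 8.58 CPM in the Notch groups. Lonrf3, a RING finger gene, averaged 59.4 ± 9.33 CPM in guide cells and 0.0464 ± 0.036 CPM in control cells, against 0.696 to 19.8 CPM. Cnn3, an actin-binding calponin, averaged 33.7 ± 6.06 CPM in guide cells and 0.0785 ± 0.192 CPM in control cells, where replicate 1 alone held counts (0.471 CPM). The guide line was above all other groups of the series in these genes.

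In the other direction, Hecw2, a HECT-type ubiquitin ligase, ran from 0.375 to 0.966 CPM in guide cells and from 296 to 316 CPM in control samples, against 154 to 256 CPM in the Notch groups. Klhl6, a ubiquitin ligase adaptor of lymphocytes, averaged 0.0808 ± 0.0698 CPM in guide cells and 62.5 ± 1.88 CPM in control cells, against 30.9 to 37.1 CPM. Gimap9, a GTPase of lymphocytes, averaged 0.558 ± 0.286 CPM in guide cells and 37.6 ± 24.3 CPM in control cells. The Notch groups thus kept levels of these 3 genes that the guide line lacked. The lectin gene Clec2f had no counts with the guides and was at least 1060-fold lower, taking 3 counts in the 6 guide samples together as the floor. Stc1, which encodes the hormone stanniocalcin, averaged 0.164 ± 0.169 CPM in guide cells and 42.3 ± 2.92 CPM in control cells, and Selenbp1, a selenium-binding protein, 0.163 ± 0.14 CPM in guide cells and 36.0 ± 2.35 CPM in control cells. Both were also low in the NICD-ER lines (2.20 to 3.29 CPM for Stc1 and 0.909 to 1.12 CPM for Selenbp1).

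Genes of sugar metabolism and the response to low oxygen were mostly lower with the guides. Of 46 tested members of this list, 36 were lower and 6 higher, with a median log2 fold change of -0.475. Among its hypoxia genes 17 of 21 were lower and 2 higher, and among its glycolysis genes 19 of 25 were lower and 4 higher. Outside chromosomes 5 and 8, 34 of 44 were lower and 6 higher, where 3031 of 9409 genes in all were lower and 2810 higher. Hypoxia-inducible factors switch on many of these genes through a short DNA motif, so the promoters of the 3 called members with the most negative change are shown. They are 300 bases of RefSeq (GRCm38.p6), from 250 before to 50 after the start site, on the plus strand in all 3. Capitals mark the 5-letter core ACGTG or GCGTG, or CACGT or CACGC, its reverse complements.

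Car9 (chr4:43506776-43507075): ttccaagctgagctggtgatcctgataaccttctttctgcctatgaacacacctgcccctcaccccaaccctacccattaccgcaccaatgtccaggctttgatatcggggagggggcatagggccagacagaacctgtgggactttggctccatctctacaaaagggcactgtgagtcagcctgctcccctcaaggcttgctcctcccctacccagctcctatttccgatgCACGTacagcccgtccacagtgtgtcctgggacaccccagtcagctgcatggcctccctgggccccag
Pfkfb4 (chr9:108991652-108991951): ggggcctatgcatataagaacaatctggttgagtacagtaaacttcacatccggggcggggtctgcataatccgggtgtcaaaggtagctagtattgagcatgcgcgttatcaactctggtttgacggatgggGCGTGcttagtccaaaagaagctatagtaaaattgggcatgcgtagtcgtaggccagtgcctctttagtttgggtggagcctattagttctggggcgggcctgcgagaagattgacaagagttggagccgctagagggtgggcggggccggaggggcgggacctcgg
Aldoc (chr11:78322823-78323122): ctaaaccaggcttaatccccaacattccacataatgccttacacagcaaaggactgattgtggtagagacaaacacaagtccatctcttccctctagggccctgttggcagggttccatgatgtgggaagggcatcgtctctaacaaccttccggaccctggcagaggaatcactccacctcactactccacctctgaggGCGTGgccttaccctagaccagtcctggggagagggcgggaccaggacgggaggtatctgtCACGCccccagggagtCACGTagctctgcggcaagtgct

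Car9 holds 1 match, 18 bases before the start site. Pfkfb4 holds 1, and Aldoc 3. The core is short and common: it stands in 65.2% of the 8602 promoters matched to tested genes, in 16 of 19 matched promoters of hypoxia genes (84.2%) and in 17 of 24 of glycolysis genes (70.8%). Of the lower hypoxia genes, 12 of 15 matched promoters hold it (80.0%). A match is a description of the letters and not of binding.

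Car9, a carbonic anhydrase induced by low oxygen, was at 6.82, 8.43 and 10.2 CPM in guide cells and at 175, 184 and 196 CPM in control samples, which is -4.43 as log2 fold change (SE 0.0686; edgeR adjusted p = 2.94e-17). Pfkfb4, which sets the level of a regulator of glycolysis, ran from 1.17 to 2.31 CPM in guide cells and from 9.71 to 11.1 CPM in control samples (-2.69, SE 0.131). Aldoc, an aldolase of glycolysis, was at 74.9 to 108 CPM in guide cells and 278 to 357 CPM in control samples (-1.82, SE 0.0405). No guide sample reached the lowest control in these 3 genes.

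Other members of the list were higher. Pfkfb3, which encodes the same kind of regulator as Pfkfb4, was at 48.5 to 51.5 CPM in guide cells and 18.9 to 24.9 CPM in control samples (log2 fold change 1.19, SE 0.0581). Eno2, the enolase known from neurons, had 1227 counts over the guide samples and 1 over the controls, which pooled gives a ratio of 1074 (95% interval for counting error, 192.3 to 42440).

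Other biosynthetic and energy genes also were mostly lower. In cholesterol and fatty acid synthesis, 28 of 40 members were lower and 1 higher (23 and 1 of 34 outside chromosomes 5 and 8), with a median of -0.32. Lss, the lanosterol synthase, ran from 205 to 305 CPM in guide cells and from 595 to 807 CPM in control samples (-1.44, adjusted p = 4.35e-14, edgeR). Pmvk, the phosphomevalonate kinase, gave -1.0. The higher member was Abcg1, an exporter of cholesterol, at 14.4 to 49.3 CPM in guide cells and 4.89 to 23.7 CPM in control samples (1.31). Its groups overlap across sets and not within them, and set 1 is higher in both groups.

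Of 38 nuclear subunits of oxidative phosphorylation, 24 were lower and 1 higher, with a median of -0.17. Atp5k, an ATP synthase subunit on chromosome 5, had the most negative change (-0.59, 72.9 ± 4.32 CPM in guide cells and 109 ± 8.78 CPM in control cells). The higher member was Cox4i1, a cytochrome c oxidase subunit on chromosome 8 (0.47), so that 23 were lower and 0 higher among the 36 outside both chromosomes. Of 55 genes of amino acid supply and stress, 24 were lower and 18 higher. Amino acid transporters (10 of 13 higher, 2 lower) and targets of the stress factor Atf4 with the serine pathway (14 of 24 lower, 5 higher) differed within this list. Atf4 was itself lower (414 ± 25.6 CPM in guide cells and 750 ± 49.6 CPM in control cells, -0.87), and Eif4ebp1, a brake on translation and a chromosome 8 gene, was higher (1.08). Heat shock and chaperone genes gave 7 of 17 lower and 3 higher, with a median of -0.02, and 58.8% were called, against 64.5% of all genes.

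**Figure D3:**
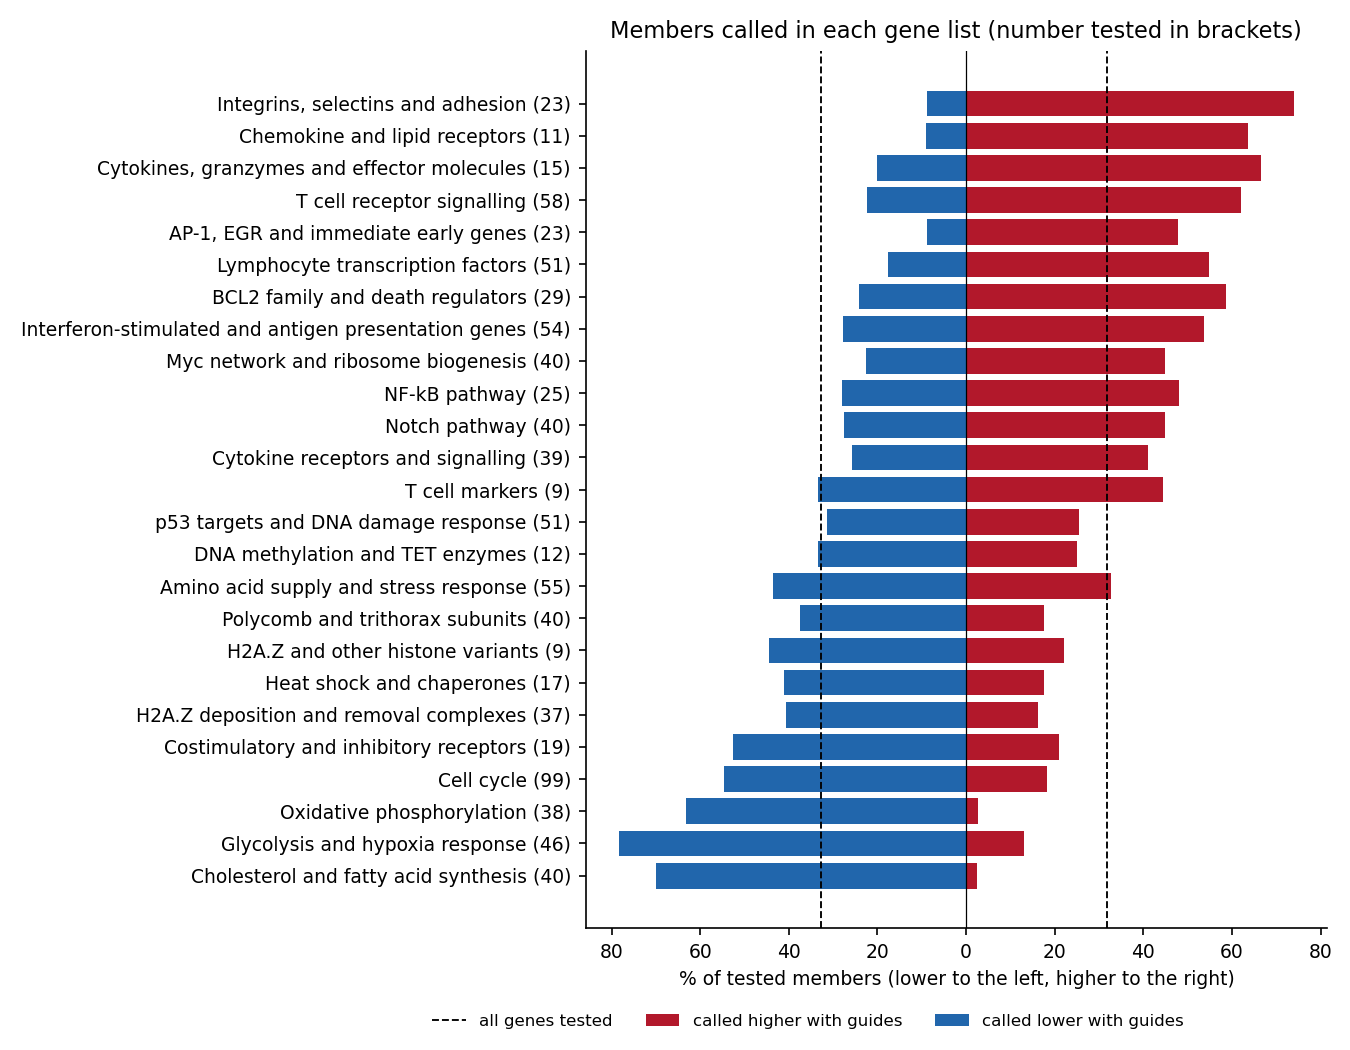
Share of tested members of 25 gene lists called higher with the guides (red, to the right) and lower (blue, to the left), in percent, with the number tested in brackets. Dashed lines give the shares over all genes, 31.8% and 32.7%. Adhesion genes stand at the top, with 17 of 23 higher, and cholesterol and fatty acid genes at the bottom, with 28 of 40 lower.

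Cell cycle genes were more often lower than higher. Of 99 tested, 54 were lower and 18 higher, with a median of -0.18. Among mitosis genes 25 of 34 were lower and 3 higher, and none of them lies on chromosomes 5 or 8. Cdc20, the activator of the anaphase-promoting complex, ran from 67.5 to 120.0 CPM in guide cells and from 141 to 164 CPM in control samples (-0.93, SE 0.079). E2f7, a repressor of E2F targets, gave -0.94. Among replication genes 21 of 39 were lower and 5 higher (14 and 1 of 26 outside chromosomes 5 and 8). On the other side stood Ccnd2, a D-type cyclin, at 204 to 252 CPM in guide cells and 122 to 144 CPM in control samples (0.77), and Rbl2, a pocket protein on chromosome 8 (1.42). E2f6, a repressor of the E2F family, had 1239 counts with the guides and 1 in the control, which pooled gives a ratio of 1084 (95% interval for counting error, 194.2 to 42850).

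The Myc network and ribosome biogenesis list gave 18 of 40 higher and 9 lower, and 67.5% were called, against 64.5% of all genes. Ribosome biogenesis genes made up 15 of the 18, and Mxd4, which competes with Myc for Max, had the largest change (82.6 to 157 CPM in guide cells and 21.7 to 48.3 CPM in control samples, 1.80). Mxd4 lies on chromosome 5 between 30 and 50 Mb, where the median was above 0. Of 51 genes of the p53 and DNA damage response, 16 were lower and 13 higher, and of the 30 double-strand break repair genes among them 12 were lower and 6 higher. In all 56.9% of the 51 were called, against 64.5% of all genes. Of 29 BCL2 family and death regulators, 17 were higher and 7 lower. They included the survival gene Bcl2 (78.2 to 161 CPM in guide cells and 21.2 to 77.6 CPM in control samples, 1.32) and the pro-death genes Bmf (1.62) and Bbc3 (1.15). Of the 7 survival genes tested 4 were higher and 3 lower, and of the 22 death genes 13 were higher and 4 lower.

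Genes of T cell receptor signalling were mostly higher. Of 58 tested, 36 were higher and 13 lower (31 and 11 of 51 outside chromosomes 5 and 8), with a median of 0.25. Cd4, the coreceptor for MHC class II, was at 66.3, 74.2 and 192 CPM in guide cells and at 3.68, 5.38 and 6.01 CPM in control samples, which is 4.23 as log2 fold change (SE 0.187; edgeR adjusted p = 1.49e-11). Cd247, the zeta chain of the receptor complex, was at 15.1 to 29.3 CPM in guide cells and at 0 to 0.197 CPM in control samples (7.55). It shares exon sequence with Pou2f1 on the opposite strand. The 4 Notch groups had 1.68 to 4.38 CPM of Cd4 and 0.542 to 6.55 CPM of Cd247, below every guide sample.

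The 13 lower members included enzymes that act near the receptor, although 6 of the 8 kinases of the list were higher and 2 lower. Lck, the kinase that phosphorylates the receptor chains, ran from 42.2 to 74.2 CPM in guide cells and from 161 to 187 CPM in control samples (-1.51, SE 0.074). Ptpn6, the phosphatase SHP-1, averaged 15.2 ± 1.97 CPM in guide cells and 39.8 ± 5.78 CPM in control cells (-1.39), and Prkcq, protein kinase C theta, 0.60 ± 0.446 CPM in guide cells and 2.69 ± 0.445 CPM in control cells (-2.20). Of 9 tested genes in the T cell marker list, 4 were higher and 3 lower.

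Costimulatory and inhibitory receptors gave 10 of 19 lower and 4 higher, with a median of -0.33. Cd48, a ligand of the SLAM family, had 1 count with the guides and 775 in the controls, which pooled gives a ratio of controls over guides of 885.8 (95% interval for counting error, 158.5 to 35030). Cd40lg, with which helper T cells stimulate B cells, had 3 counts with the guides and 320 in the controls (121.9, interval 41.34 to 594.3). Tnfrsf18, the receptor GITR, averaged 2.90 ± 1.24 CPM in guide cells and 24.0 ± 4.66 CPM in control cells (-3.09). The inhibitory receptor Pdcd1 (PD-1) was higher, at 947, 1036 and 1061 CPM in guide cells and 158, 330 and 339 CPM in control samples (1.95), and so was the costimulatory Cd226 (1.16).

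Of 39 tested genes of cytokine receptors and their signalling, 16 were higher and 10 lower, and 66.7% were called, against 64.5% of all genes. Of the 18 receptors among them 10 were higher and 4 lower, and of the 21 JAK, STAT and SOCS genes 6 were higher and 6 lower. Il12rb1, a chain of the receptors for IL-12 and IL-23 on chromosome 8, averaged 32.4 ± 2.55 CPM in guide cells and 1.13 ± 0.602 CPM in control cells (4.77). Il2rb, the beta chain of the IL-2 and IL-15 receptors, ran from 31 to 62.2 CPM in guide cells and from 4.47 to 8.77 CPM in control samples (3.06). Il10ra, the IL-10 receptor, averaged 3.23 ± 0.96 CPM in guide cells and 105 ± 22.4 CPM in control cells (-5.04, adjusted p = 5e-18). Socs3, a feedback inhibitor of some cytokine receptors, gave 2.11 at levels of at most 2.40 CPM.

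Of 15 tested cytokine and effector genes, 10 were higher and 3 lower. The chemokine Ccl5 ran from 18.0 to 57.5 CPM in guide cells and from 1.89 to 5.58 CPM in control samples (2.80), and the death ligand Tnfsf10 (TRAIL) gave 2.18. Of 5 cytotoxic genes among them 2 were higher and 2 lower. The lower ones were granzymes: Gzma averaged 7.26 ± 4.92 CPM in guide cells and 35.5 ± 17.3 CPM in control cells (-2.39), and Gzmb 0.567 ± 0.535 CPM in guide cells and 3.02 ± 1.55 CPM in control cells (-2.35). Granzymes have near-identical relatives, and their single values are uncertain.

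Surface genes of migration and adhesion were mostly higher. Of 11 chemokine and lipid receptors, 7 were higher and 1 lower: Ccr8 (1.62) and Cxcr6 (1.61) were among the higher ones, and Ccr9, which guides cells to the gut, was the lower (0.203 ± 0.111 CPM in guide cells and 7.09 ± 4.37 CPM in control cells, -4.96). Of 23 adhesion genes, 17 were higher and 2 lower, with a median of 0.53. They included Entpd1, the ectonucleotidase CD39 (3.30), the tetraspanin Cd81 (1.73) and the integrin Itgb3 (1.26). Selplg, the ligand of P-selectin, was lower (-2.70) and lies on chromosome 5.

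Lymphocyte transcription factors were more often higher (28 of 51) than lower (9 of 51), with a median of 0.32. Satb1, which organises chromatin in thymocytes, was at 12.8 to 15.4 CPM in guide cells and at 2.67 to 4.43 CPM in control samples (2.00, SE 0.103). Id2, which blocks E proteins, averaged 106 ± 4.89 CPM in guide cells and 35.6 ± 13.2 CPM in control cells (1.62), and Irf4, an effector cell factor, 5.25 ± 2.35 CPM in guide cells and 1.41 ± 0.189 CPM in control cells (1.87). In set 1 alone Irf4 gave 0.68 and was not called (edgeR adjusted p = 0.207). Bhlhe41, a repressor of the clock, ran from 0 to 0.167 CPM in guide cells and from 4.36 to 9.99 CPM in control samples (-6.38), and its relative Bhlhe40 gave -0.60. Of 27 factors of other lineages 4 passed the filter, 1 was higher and 2 lower, among them the stem cell gene Meis1 (1 count with the guides and 159 in the controls).

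AP-1 and immediate early genes gave 11 of 23 higher and 2 lower, and 56.5% were called, against 64.5% of all genes. Junb, an AP-1 subunit on chromosome 8, averaged 223 ± 59.1 CPM in guide cells and 99.8 ± 20.6 CPM in control cells (1.14), and Fos 49.0 ± 14.1 CPM in guide cells and 22.1 ± 16.1 CPM in control cells (1.33). In the NF-kB list 12 of 25 were higher and 7 lower, and 76.0% were called. Nfkb1, the p105/p50 subunit, ran from 523 to 610 CPM in guide cells and from 326 to 350 CPM in control samples (0.73), and the adaptor Traf5 gave 1.37. Bcl3, a partner of p50, gave -1.22, and -0.62 in set 1 alone, where it was not called (edgeR adjusted p = 0.268).

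Of 54 interferon-stimulated and antigen presentation genes, 29 were higher and 15 lower. Among the interferon-stimulated ones 20 of 33 were higher and 7 lower, and among MHC class I genes 9 of 21 were higher and 8 lower. Gbp2, a GTPase of cell defence, averaged 10.2 ± 1.72 CPM in guide cells and 0.597 ± 0.31 CPM in control cells (4.11). Its relative Gbp3 gave 2.44 and the viral RNA sensor Ifih1 gave 2.48. Nlrc5, the activator of MHC class I genes, was at 2.39 to 5.80 CPM in guide cells and at 17.8 to 20.9 CPM in control samples (-2.19), although it lies on chromosome 8. H2-D1, an MHC class I gene with near-identical relatives, averaged 82.9 ± 10.5 CPM in guide cells and 275 ± 29.2 CPM in control cells (-1.74), and Ifi27l2a, whose exons overlap another gene of its family, gave -2.53.

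In the chromatin lists, of 37 subunits that place or remove H2A.Z, 15 were lower and 6 higher, and no member changed 2-fold (0 of 37). In all 56.8% of them were called, against 64.5% of all genes tested (32.7% lower and 31.8% higher). Actr5, an INO80 subunit, gave 0.46, and the chaperone Anp32e was lower (535 ± 45.1 CPM in guide cells and 823 ± 62.5 CPM in control cells, -0.63). Of 9 histone variants tested, 4 were lower, the targeted pair among them, and 2 were higher: H2afj (0.42) and H2afy, which encodes macroH2A (0.28). Of 40 Polycomb and trithorax subunits 15 were lower and 7 higher, and the share called (55.0%) was also below that of all genes. Kdm5b, a demethylase of histone H3 lysine 4, was at 49.9 to 74.8 CPM in guide cells and at 172 to 204 CPM in control samples (-1.65). The PRC1 subunits Bmi1 and Phc1 gave -0.94 and -0.63. Ash2l, a core subunit of the lysine 4 methyltransferases on chromosome 8, averaged 121 ± 8.48 CPM in guide cells and 36.1 ± 1.62 CPM in control cells (1.74).

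Of 12 DNA methylation and TET genes 3 were higher and 4 lower, and 58.3% were called, against 64.5% of all genes. Dnmt3b, a de novo methyltransferase, gave 0.72 and Tet1, which oxidises methylcytosine, gave -0.89. Of 7 germline and imprinted genes tested 2 were higher and 3 lower. Grb10, an imprinted inhibitor of insulin signalling, was at 2.08 to 18.4 CPM in guide cells and at 0.0689 to 3.2 CPM in control cells (2.85), with overlap across sets. Igf2r, the imprinted receptor that clears IGF2, averaged 255 ± 10.3 CPM in guide cells and 661 ± 66.1 CPM in control cells (-1.38). In the Notch list 18 of 40 were higher and 11 lower, and 72.5% were called, against 64.5% of all genes. Hes1, a repressor and direct Notch target, was at 1.05 to 11.3 CPM in guide cells and at 0.0943 to 2.57 CPM in control samples (2.29), and Tcf7, a T lineage factor, at 307 to 441 CPM in guide cells and 118 to 236 CPM in control samples (1.09). The groups of Hes1 overlap across sets, and set 1 was lower in both.

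Chromosomes 5 and 8 stood apart. On chromosome 8 the median log2 fold change of 571 genes was 0.51, and 91.6% of them were above 0. All 12 windows of 10 Mb with at least 10 genes on chromosome 8 had medians between 0.365 and 0.628. On chromosome 5 the 512 genes from 50 Mb on had a median of -0.42, with 14.8% above 0, and the 97 genes from 30 to 50 Mb had 0.30. The medians of the other 18 chromosomes lay between -0.08 and 0.11. The bounds on chromosome 5 were chosen after the window medians were seen. Of the higher calls 13.5% and of the lower calls 0.89% lay on chromosome 8, which holds 5.36% of the genes tested.

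Sets and samples gave the same picture for these chromosomes. Chromosome 8 had medians of 0.545 in set 1 and 0.505 in set 2, and chromosome 5 from 50 Mb had -0.42 in both. The mean log2 level of chromosome 8 genes, relative to all genes, was -0.12 to -0.05 in the 6 guide samples and -0.66 to -0.62 in the 6 controls. In the other lines it was -0.55 with wild-type BioNICD, -0.51 with the DEP mutant, -0.27 in NICD-ER cells with 4-OHT and -0.24 with ethanol. For chromosome 5 from 50 Mb it was -0.28 to -0.22 with the guides, 0.185 to 0.195 in the controls and 0.148 to 0.217 in the other lines. Chromosome 8 thus varied between lines that carry no guides, whereas chromosome 5 from 50 Mb was low in the guide line alone.

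Shorter stretches elsewhere also had shifted medians. The first 30 Mb of chromosome 17 (209 genes) stood at 0.325 and chromosome 2 from 160 Mb (127 genes) at 0.315. These bounds too were chosen after the window medians were seen, and the chromosome 2 stretch includes the window from 170 to 180 Mb, with a median of 0.11. Of 215 windows on the other chromosomes, 11 had a median above 0.3 and 3 below -0.3.

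**Figure D4:**
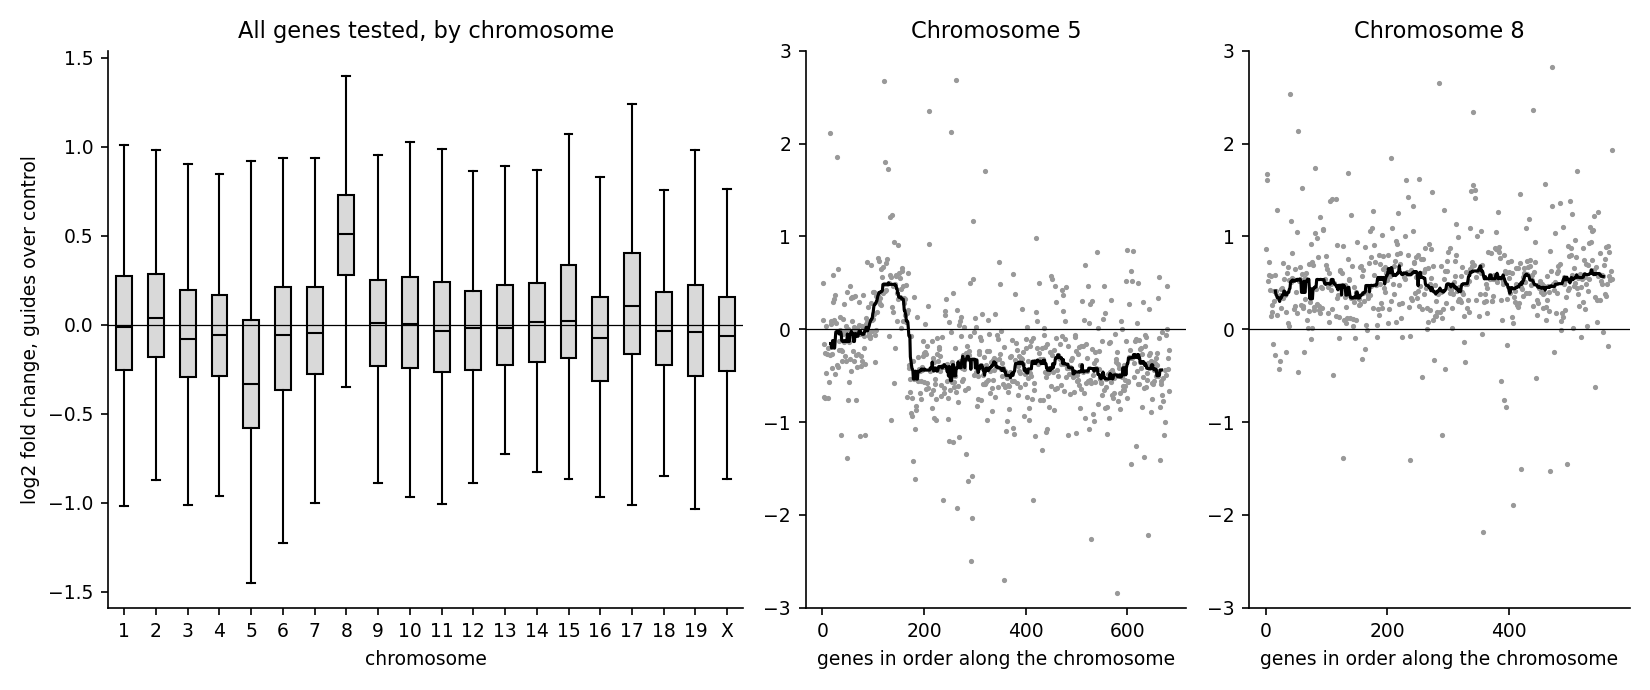
Left, log2 fold change of guides over control for all genes tested, by chromosome (line: median; box: quartiles; whiskers: the most distant gene within 1.5 box lengths). Right, each gene of chromosomes 5 and 8 in order along the chromosome, with a running median of 31 genes; 32 genes beyond 3 in either direction are not drawn. Chromosome 8 is shifted up over its whole length, and chromosome 5 turns from above to below 0.

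For 1672 genes (15.7%) the size of the guide effect was not the same in both sets, with the set 2 effect higher in 873 and lower in 799 (edgeR, interaction term). This count moved with single samples: it was 4062 without guide replicate 2, 851 without control replicate 1 and 1037 without control replicate 2. It was 447 when the 3 libraries with the largest Rn45s share, all in set 2, were left out, and the cause was not tested. Of 1125 genes called in the main comparison that also differed between sets and were measured in both, 949 had the same sign in both sets. Levels differed between the sets within the guide samples in 4778 genes (44.8%) and within the controls in 3650 genes (34.2%).

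The samples behind the largest differences were as follows. Sgk1 had 313 to 336 CPM in the guide samples of set 2 and 31.5 to 33.5 CPM in their controls, but 556 and 715 CPM in the guide samples of set 1 and 254 and 257 CPM in their controls. The log2 fold change was 3.33 in set 2 and 1.31 in set 1 (difference 2.01, adjusted p = 4.43e-08, edgeR). The gene 5830411N06Rik had 1306 and 1234 CPM in the set 1 controls and 192 to 201 CPM in the set 2 controls (difference 1.58). In both genes the controls differed more between sets than the guide samples did.

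Anxa1, a calcium-dependent membrane protein, was at 61.6 to 72.3 CPM in all 6 guide samples, at 75.9 and 81.2 CPM in the set 1 controls and at 26.3 to 29.5 CPM in the set 2 controls. It was higher in set 2 (1.18) and gave -0.13 in set 1. The tubulin gene Tuba1a gave -1.15 in set 1 and 0.39 in set 2. On the other side, Angptl2, a secreted angiopoietin-like protein, gave 2.58 in set 1 and 1.08 in set 2, and the glycan-branching enzyme Mgat5 1.52 and 0.14. The histone deacetylase Hdac7, whose exons overlap Slc48a1 on the opposite strand, gave -0.15 and -1.51, and the vault RNA Vaultrc5 0.94 and -0.29. These opposite or unequal set values are hidden in the pooled estimates, which were -0.12 for Tuba1a and 0.08 for Vaultrc5.

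Other named genes also gave set 1 values more than 1.5 times away from the pooled ones. Set 1 alone gave smaller log2 fold changes for Bin1 (1.21), Il2rb (1.99), Socs3 (1.36), Ccr8 (1.04), Ccr9 (-2.59), Itgb3 (0.73), Id2 (1.07) and Fos (0.65). It gave larger ones for H2afj (0.99), H2afy (0.43), Phc1 (-1.08), Hes1 (3.64), Prkcq (-4.44), Ccl5 (4.41), Gzma (-3.75) and Gzmb (-6.10). These genes kept their direction in set 1.

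Of the targeted genes, H2afv differed between sets: it gave -1.46 in set 1 and -2.08 in set 2 (difference -0.63, SE 0.123, adjusted p = 0.00374, edgeR), while the difference for H2afz was -0.01 (SE 0.184, adjusted p = 0.984). H2afv was at 56.9 and 44.6 CPM in guide replicates 1 and 2 and at 27.4 to 30 CPM in guide replicates 3 to 6.

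**Figure D5:**
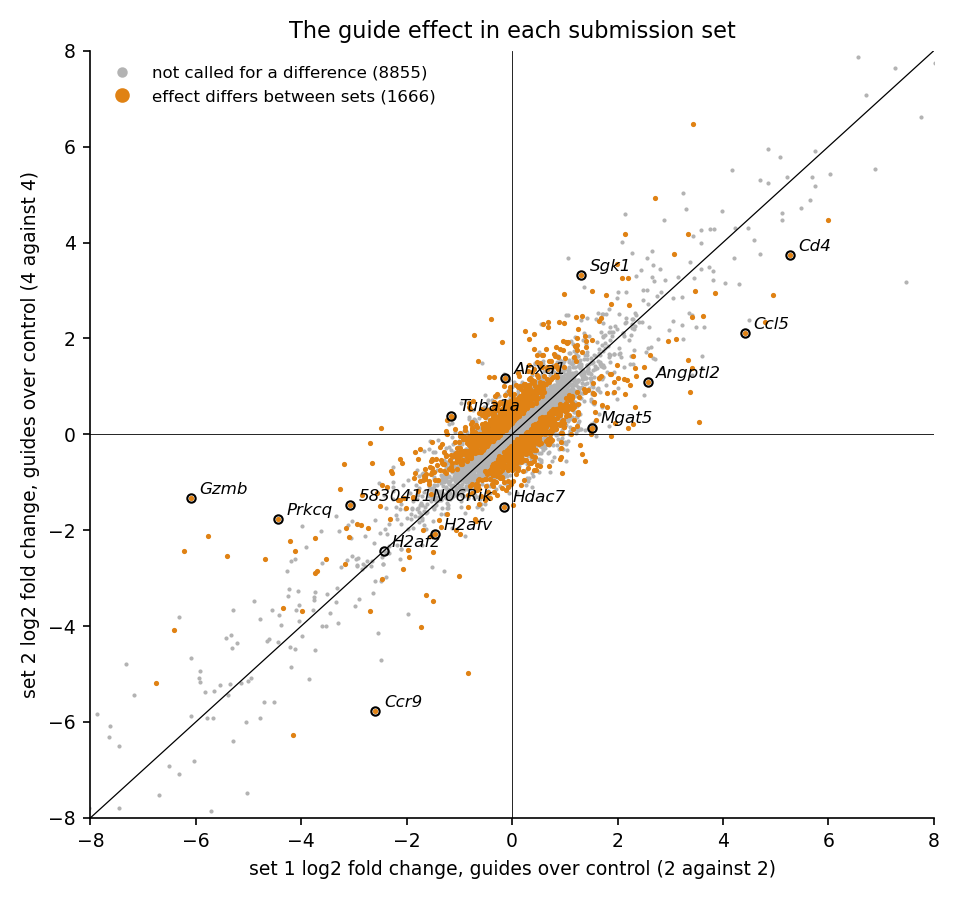
Log2 fold change of guides over control in set 2 (vertical axis, 4 against 4) against set 1 (horizontal axis, 2 against 2) for genes tested in both, with genes whose effect differed in orange and the line of equal effects; 48 of 10521 genes lie beyond 8 in either direction and are not drawn. Sgk1 and Anxa1 lie above the line, and Angptl2, Mgat5 and Hdac7 below it.

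Guide replicates 1 and 2 were less alike than any other pair within a set. Of 8517 genes with at least 100 counts in both, 35 were more than 2-fold apart, against 0 to 3 in the pairs of guide replicates 3 to 6 and 1 to 10 in control pairs within a set. The median absolute log2 ratio was 0.20 in this pair, 0.06 to 0.07 in the other guide pairs within a set and 0.19 to 0.26 between sets. The 35 genes had a median exon length of 736 bases, against 2980 bases for all 8517. The most distant were short noncoding RNAs that guide ribosomal RNA modification and processing: Snora62, Snord17 and Snora16a were higher in replicate 1 (log2 ratios 1.51, 1.48 and 1.34), and Snord12 and Snord47 lower (-1.73 and -1.52). Rpl39, a ribosomal protein gene with a short transcript, was at 73.7 CPM in replicate 1 and 338 CPM in replicate 2 (-2.20). These are values of 2 libraries with no test.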

How the data were processed

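RNA depleted of ribosomal RNA was sequenced, and the authors deposited whole-number counts of reads per gene, made with featureCounts 1.5.0 on mm9 gene models without a strand option, per the file headers. FastQC, Trimmomatic, STAR and DESeq2 are named in the submitters' processing notes, with versions not given in the sources used here. Reads of genes that overlap on opposite strands cannot be told apart in these counts.

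The 6 guide and 6 control samples were grouped by title. Genes were filtered with filterByExpr, scaled with TMM and tested with edgeR 4.0.16 (R 4.3.3) by quasi-likelihood, with the set as a covariate and Benjamini-Hochberg adjustment at 0.05. The standard error is the log2 fold change divided by the root of F. An interaction of group and set tested whether effects differed between sets. CPM and log2 levels were computed from the deposited counts with TMM factors over all 20 samples. Intervals and floors cover counting error only. Totals per sample limit precision chiefly for genes of few counts. The scripts were tested on simulated data.

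Members and gene lists were chosen with earlier results of these data known. Named genes are the targeted pair and the 10 largest called changes per direction with non-overlapping groups and at least 10 CPM in both. Of called, non-overlapping genes under 1 CPM in a group, they include the 6 per direction with the highest mean in the other group. Up to 3 called list members per direction were added. So were the 4 largest set differences per direction and the 3 most distant genes per direction between guide replicates 1 and 2. Alternatives were other scalings, DESeq2 1.42.0, other filters, sets and samples left out. Promoter sequences are from RefSeq (GRCm38.p6), a build other than that of the files.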

Additional observations from a re-analysis of the deposited data

Results flagged for a closer look

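The guide effect differed between set 1 and set 2 in 1672 of the genes tested (15.7%; edgeR interaction term, Benjamini-Hochberg adjusted over all genes). Among the 124 genes named here it differed in 50. Sgk1, 5830411N06Rik, Tuba1a, Anxa1, Angptl2, Mgat5, Hdac7 and Vaultrc5 were named for their set difference, so they are among the 50 by choice. Most others were named for large changes between guides and controls. The share among named genes therefore cannot be compared with that of all genes. Values below are the log2 fold change in set 2 minus that in set 1. Above 1 stood Cnn3 (5.26), Gzmb (4.77), Prkcq (2.66), Sgk1 (2.01), Gzma (1.58), Irf4 (1.58), 5830411N06Rik (1.58), Il2rb (1.56), Tuba1a (1.53), Anxa1 (1.30), Bin1 (1.22) and Fos (1.12). Between 0 and 1 stood Tnfrsf18 (0.85), Ccr8 (0.85), Id2 (0.84), Nlrc5 (0.79), Itgb3 (0.78), Elk3 (0.71), Avil (0.71), Cxcr6 (0.62), Ptpn6 (0.61), Cd81 (0.54), Lck (0.54), Bmi1 (0.52), Rasa3 (0.47), Ptdss2 (0.31) and Rbl2 (0.31). Below -1 stood Ccr9 (-3.20), Fut10 (-2.94), Ccl5 (-2.31), Gimap9 (-2.13), Cd4 (-1.53), Il12rb1 (-1.52), Angptl2 (-1.5), Mgat5 (-1.38), Hdac7 (-1.37) and Vaultrc5 (-1.22). Between -1 and 0 stood Pdcd1 (-0.97), Per3 (-0.96), Bcl2 (-0.85), H2afj (-0.83), H2afv (-0.63), Cox6a2 (-0.62), Zcwpw1 (-0.54), Tcf7 (-0.53), Akap12 (-0.49), Lat2 (-0.45), Cdc20 (-0.42), Kdm5b (-0.40) and E2f7 (-0.36). In Cnn3, Fut10, Gzmb and Prkcq a group lies near 0 CPM in a set, and the size of the fitted difference depends there on the prior count of the fit.

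A single sample stood apart from the other 5 of its group by Dixon's test in 20 of 248 groups of 6 values. The test flags about 1 in 20 groups of independent normal values, a rate that need not hold here. Each group mixes 2 sets, and some hold few counts. Snord17 and Rpl39 were named for the distance between guide replicates 1 and 2, so their flags follow from that choice. Among the guide samples these were Zcwpw1 at 25.0 CPM in guide replicate 1, Vaultrc5 at 74.5 CPM in guide replicate 1, Snord17 at 631.0 CPM in guide replicate 1, Rpl39 at 73.7 CPM in guide replicate 1, H2afj at 84.9 CPM in guide replicate 1, H2afy at 389.0 CPM in guide replicate 1, Pdcd1 at 947.0 CPM in guide replicate 2, Cd48 at 0.0655 CPM in guide replicate 6, Cxcr6 at 30.5 CPM in guide replicate 2, Meis1 at 0.0641 CPM in guide replicate 3 and Igf2r at 274.0 CPM in guide replicate 5. Among the controls these were Fcgr2b at 0.275 CPM in control replicate 3, Cnn3 at 0.471 CPM in control replicate 1, Klhl6 at 59.0 CPM in control replicate 2, Clec2f at 29.4 CPM in control replicate 1, Kdm5b at 204.0 CPM in control replicate 1, Cd48 at 7.51 CPM in control replicate 3, Meis1 at 3.04 CPM in control replicate 2, E2f6 at 0.0943 CPM in control replicate 1 and Eno2 at 0.0656 CPM in control replicate 4. For Cd48 and Meis1 in the guide samples and for E2f6 and Eno2 in the controls, the whole group of 6 holds 1 count, in the sample named. For Cnn3 the 5 counts of the control group are all in that sample, and for Fcgr2b the control group holds 8 counts.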

How the results depend on the processing

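Numbers of calls and both targeted genes were recomputed under 25 alternatives of the fit. List members and chromosome medians were recomputed under these except the fit without chromosomes 5 and 8, and the comparisons between sets under fewer. H2afz and H2afv stayed lower and past the threshold in all 25, with log2 fold changes of -2.48 to -2.4 and -1.96 to -1.83 when each sample was left out in turn. Set 1 alone (2 against 2) called 2948 genes, 1563 higher and 1385 lower, with 178 and 153 list members higher and lower and a chromosome 8 median of 0.54. Without a filter on low counts, 824 genes were higher and 727 lower at 2-fold and the chromosome 5 median was -0.3. At 2-fold, 987 genes were called. The median of chromosome 5 from 30 to 50 Mb was 0.33 in set 2 alone, in genes with at least 10 CPM and without replicate 1 of both groups, 0.28 with all 20 samples in the fit, and 0.29 to 0.34 with each sample left out. The count of genes whose effect differed between sets was 851 to 4062 with each sample left out and 447 without the 3 samples highest in Rn45s. The cause was not tested.

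Signs turned in genes with small pooled changes or unequal sets. Tuba1a gave -0.21 to 0.06 with each sample left out, 0.39 in set 2 alone and 0.1 without replicate 1 of both groups. Vaultrc5 gave -0.19 to 0.15, -0.29 and -0.25 under the same settings. Snora62 gave -0.02 to 0.28 with each sample left out and -0.06 without replicate 1 of both groups, and Rpl39 -0.39 to 0.09 and 0.07. Snord17 gave -0.36 to 0.03 and 0.05 in set 1 alone, and Anxa1 -0.13 in set 1 alone. Leaving out replicate 1 of both groups was chosen after seeing the data.

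Replicate numbers are shared between the groups but do not pair the samples: deviations of same-numbered samples within group and set correlated at -0.194 to 0.307, with 1 of 6 pairs above 0.1, and 1 of 6 guide samples correlated best with its own number. With the replicate block in place of the set, 6412 genes were called, 3173 higher and 3239 lower. Among the 117 named genes that were called, Anxa1 and Mgat5 missed the threshold without a set term, and Anxa1, Hdac7, Snord12, Irf4 and Bcl3 in set 1 alone.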
